A study of Rattus norvegicus with 28 samples.

Results

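The genes described here are 9 molecules of leucocyte adhesion to the vessel wall, namely the selectins Selp and Sele, the leucocyte sialomucins Selplg and Spn, and the immunoglobulin-type receptors Vcam1, Icam1, Icam2, Pecam1 and Madcam1. They were taken by gene symbol from probe sets that carry 1 symbol in the array annotation. Of the 9 genes, 8 had such a probe set, among 17245 genes in all, and Pecam1 was not analysed here. Selp, Selplg, Spn, Vcam1, Icam1 and Icam2 had a mean level of at least 4 over all arrays and were among the 11750 genes tested, whereas Sele and Madcam1 lay just under that minimum, with mean levels of 3.91 and 3.99. The 9 genes were selected on their measured values, that is with their levels in low and high WSS known from earlier results, so their differences between the regions are given below as a description. How many of them passed a threshold is printed once beside the share of all genes that did, and is not a test of the group.

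The study asked whether gene expression in the normal aorta varies with local wall shear stress (WSS), the frictional force of flowing blood on the vessel wall. The low WSS group consisted of 14 pools from the distal part of the lesser curvature of the aortic arch, where the direction of WSS was not uniform, and the high WSS group consisted of 14 pools from the greater curvature, where it was. Both groups were from untreated male Wistar rats, with tissue from 5 animals in each pool and 70 animals in all, and pools of the same number held the 2 regions of the same animals. Each pool held the entire arterial wall, that is endothelium, smooth muscle and adventitia together, so that in these data fewer cells of a type and less RNA per cell cannot be told apart.

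Leucocytes leave the blood in steps. Selectins on the endothelium bind sialylated, fucosylated glycans on leucocyte mucins such as PSGL-1 (encoded by Selplg) and let the cells roll, and integrins on the leucocyte then bind immunoglobulin-type receptors such as VCAM-1 and ICAM-1, which arrests them. In the arterial wall VCAM-1 and ICAM-1 are best known from regions of disturbed flow, in which monocytes enter early atherosclerotic lesions. VCAM-1 and ICAM-1 are induced by inflammatory cytokines through NF-kB, and P-selectin (Selp) is kept ready in the Weibel-Palade bodies of endothelial cells and in the alpha granules of platelets.

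The promoters of the receptor genes carry well known NF-kB-type sequences, and those of Vcam1 and Icam1, the cytokine-inducible receptors measured here, are shown for this reason. The sequences are the 250 bases before the transcription start of the RefSeq gene on the GRCr8 assembly, written 5′ to 3′ in the direction of the gene, and 4 of the 9 genes (Sele, Vcam1, Icam1 and Madcam1) had an entry in the promoter set used. Capitals mark matches on either strand to a loose NF-kB pattern (GGG and CC with any 5 bases between them), GGAANTTCC (a narrower NF-kB pattern) and TTCNNNGAA (a STAT pattern), which were chosen with these windows and the known elements of Icam1 in view. Vcam1 lies at chr2:206742784-206743033 on the minus strand and Icam1 at chr8:27829595-27829844 on the plus strand.
Vcam1: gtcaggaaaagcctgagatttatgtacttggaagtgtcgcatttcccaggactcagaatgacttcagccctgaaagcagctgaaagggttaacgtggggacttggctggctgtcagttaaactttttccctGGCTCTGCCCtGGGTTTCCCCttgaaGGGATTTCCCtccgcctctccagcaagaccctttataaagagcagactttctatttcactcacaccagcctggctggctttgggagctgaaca
Icam1: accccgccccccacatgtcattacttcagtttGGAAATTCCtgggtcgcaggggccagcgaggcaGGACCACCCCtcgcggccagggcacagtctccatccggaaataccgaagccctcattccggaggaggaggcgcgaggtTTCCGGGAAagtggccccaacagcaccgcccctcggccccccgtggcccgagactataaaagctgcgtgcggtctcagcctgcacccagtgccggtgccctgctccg
Vcam1 had 3 matches to the loose pattern, at bases -119 to -110, -108 to -99 and -93 to -84 from the start. Madcam1, whose sequence is not shown, had matches to the loose pattern as well, at -119 to -110, -118 to -109 and -106 to -97. Sele, also not shown, had no match to any of the 3 patterns. Icam1 had 1 match to each pattern, GGAANTTCC at -218 to -210, the loose pattern at -185 to -176 and TTCNNNGAA at -107 to -99. Of all 33469 promoter windows of this length, 42.3% held the loose pattern, 0.669% held GGAANTTCC and 7.67% held TTCNNNGAA, so the narrower NF-kB pattern of Icam1 was the least common of the 3.

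Levels are given on the log2 scale of the arrays, and each difference is low minus high WSS, as the mean over the 14 pairs with its standard error (SE) from a linear model (limma) with the pair as a block. A level can be compared between pools for 1 gene, but not between genes. The array medians were 4.85 to 4.92 in low WSS and 4.88 to 5.0 in high WSS, and no pool was a copy of another. Over all genes tested the median difference was -0.0053, and 41.7% of the 11750 genes passed a Benjamini-Hochberg adjusted p of 0.05, with 19.7% higher and 22.0% lower. Of the 6 adhesion genes tested, 3 passed (Selp, Spn and Vcam1), all higher in low WSS, and Selp and Spn also passed the Bonferroni threshold, as did 6.91% of all genes, 3.01% with a higher level in low WSS. Nothing is read from these counts, because the same contrast was known when the genes were chosen. The median difference of the 6 genes was 0.31, and 5 of them had a higher mean in low WSS.

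P-selectin, which captures and rolls leucocytes and platelets, had the widest separation of the regions among these genes. Selp levels in the low WSS pools had a lowest value of 5.25, a median of 5.51 and a highest value of 6.26, against 4.31, 4.57 and 5.03 in the high WSS pools. The groups did not overlap, since every low WSS pool lay above the highest high WSS pool, which was the case for 0.630% of all genes (1.13% with genes separated the other way). The mean level was 5.58 ± 0.30 in low WSS and 4.63 ± 0.23 in high WSS (SD, n = 14 each), a difference of 0.95 (SE 0.09) or 1.94-fold. In 14 of 14 pairs Selp was higher in low WSS, as were 4.38% of all genes, with pair differences of 0.37 in pair 9 to 1.66 in pair 2.

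Sele, which encodes the cytokine-induced E-selectin, did not share this pattern. Sele levels were 3.75, 3.85 and 4.16 (lowest, median and highest) in the low WSS pools and 3.66, 3.89 and 4.23 in the high WSS pools, so that the groups overlapped over nearly their whole range. The difference was -0.02 (SE 0.06), with a higher level in low WSS in 7 of 14 pairs. At a mean level of 3.91 this probe set lay under the minimum, at the dim end of the arrays.

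**Figure D1:**
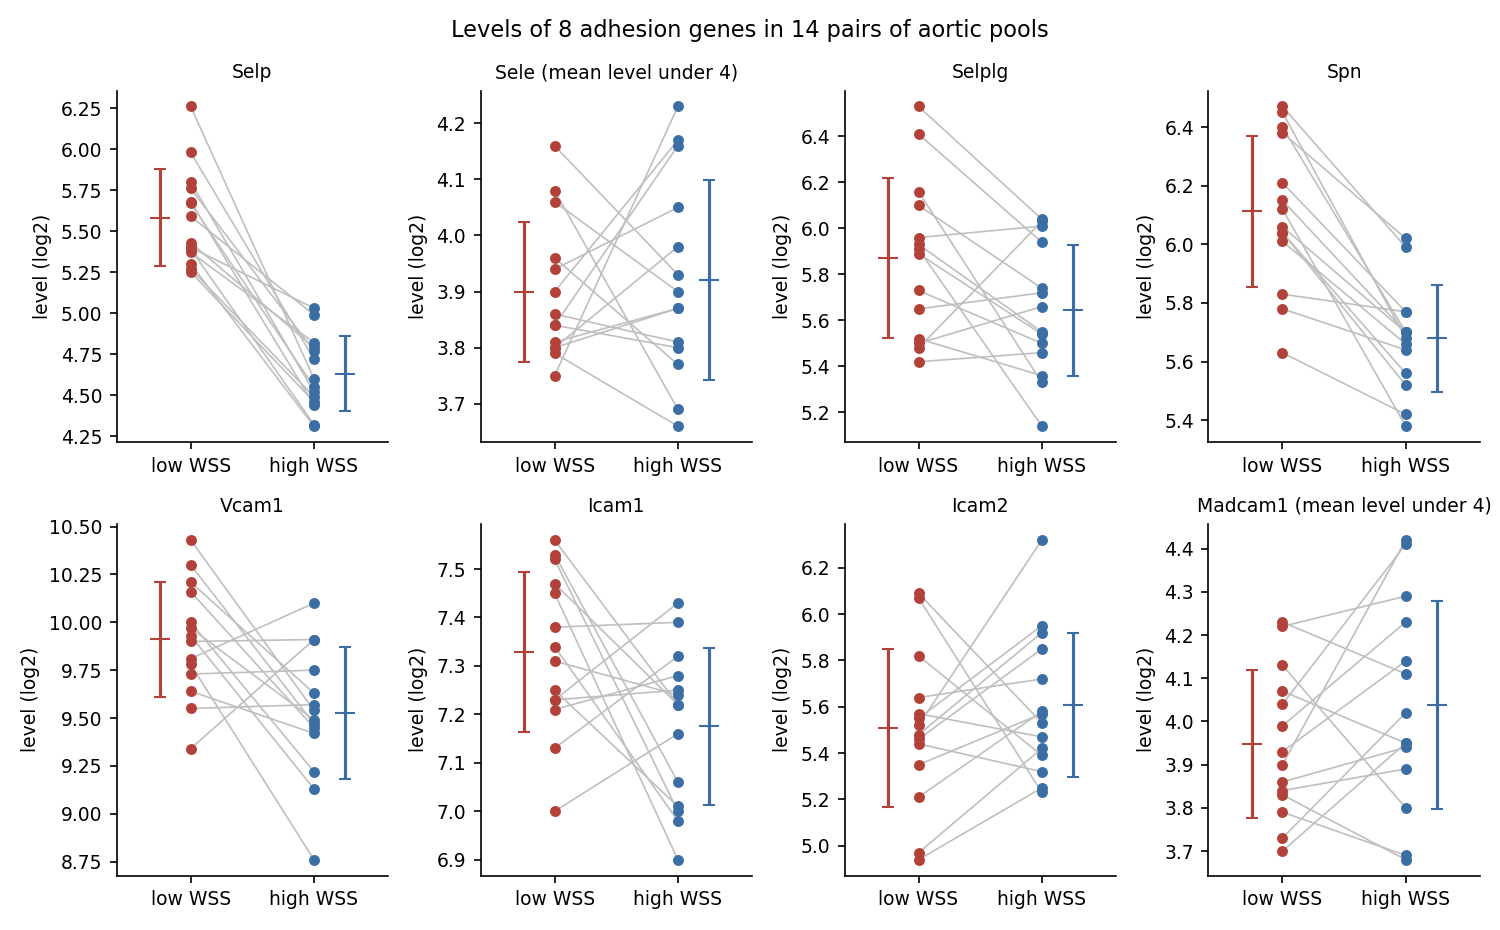
Level (log2) of the 8 adhesion genes with a probe set in the low WSS (left, red) and high WSS (right, blue) pool of each pair, joined by grey lines, with the mean ± SD of 14 pools beside each group. The Selp groups do not overlap (5.25 to 6.26 in low WSS and 4.31 to 5.03 in high WSS), and Spn lies higher in low WSS in every pair. The lines of Sele, Selplg, Vcam1, Icam1, Icam2 and Madcam1 run in both directions.

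Of the leucocyte sialomucins, Spn separated the regions more than Selplg. Spn encodes CD43, a large sialylated mucin of most leucocytes that can serve as a ligand of E-selectin. Its levels were 5.63, 6.09 and 6.47 in the low WSS pools and 5.38, 5.69 and 6.02 in the high WSS pools. The groups overlapped in part, with 10 of the 14 low WSS pools above the highest high WSS pool. The mean was 6.11 ± 0.26 in low WSS and 5.68 ± 0.18 in high WSS (SD, n = 14 each), a difference of 0.43 (SE 0.05) or 1.35-fold, in the same direction in 14 of 14 pairs. The pair differences ran from 0.06 in pair 14 to 0.77 in pair 6. The study counts CD43 among leucocyte markers that were undetected or without a significant difference in its array data. In the fit used here Spn lay above the minimum level and passed the Bonferroni threshold. It also passed an adjusted p of 0.05 in a paired t-test, the kind of test the study used. The reason for this discrepancy was not tested.

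Selplg encodes PSGL-1, the main leucocyte ligand of P-selectin. Its levels were 5.42, 5.90 and 6.53 in the low WSS pools and 5.14, 5.60 and 6.04 in the high WSS pools, which overlapped except for the 4 highest low WSS pools and the 3 lowest high WSS pools. The mean was 5.87 ± 0.35 in low WSS and 5.64 ± 0.28 in high WSS (SD, n = 14 each), a difference of 0.23 (SE 0.09) or 1.17-fold. In 9 of 14 pairs the level was higher in low WSS, and the pair differences ran from -0.54 in pair 10 to 0.83 in pair 1.

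Vcam1 encodes the receptor of the integrin VLA-4 on monocytes and lymphocytes, and smooth muscle cells can express it as well as endothelium. Its levels were 9.34, 9.92 and 10.43 in the low WSS pools and 8.76, 9.51 and 10.1 in the high WSS pools. The groups overlapped, with 4 low WSS pools above the highest high WSS pool. The mean was 9.91 ± 0.30 in low WSS and 9.52 ± 0.34 in high WSS (SD, n = 14 each), a difference of 0.39 (SE 0.12) or 1.31-fold. The low WSS pool had the higher Vcam1 level in 9 of 14 pairs, and the gene varied more between pairs than Selp or Spn, from -0.57 in pair 12 to 1.02 in pair 1, with an SD of the pair differences of 0.50, against 0.35 for Selp and 0.21 for Spn.

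Icam1, the receptor of the beta2 integrins and the other cytokine-induced receptor of this group, differed less. Its levels were 7.00, 7.33 and 7.56 in the low WSS pools and 6.90, 7.22 and 7.43 in the high WSS pools, and the groups overlapped. The mean was 7.33 ± 0.17 in low WSS and 7.18 ± 0.16 in high WSS (SD, n = 14 each), a difference of 0.15 (SE 0.07) or 1.11-fold, with a higher level in low WSS in 8 of 14 pairs. The highest pair difference was 0.55 in pair 1 and the lowest -0.21 in pair 11.

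Icam2, a constitutive endothelial and platelet ligand of the same integrins, had no clear direction over the 14 pairs. Its levels were 4.94, 5.50 and 6.09 in the low WSS pools and 5.23, 5.55 and 6.32 in the high WSS pools, with each group covering most of the range of the other. The difference was -0.10 (SE 0.11), or 0.932-fold, with a higher level in low WSS in 5 of 14 pairs and pair differences of -0.80 in pair 11 to 0.84 in pair 3. Madcam1, the receptor of lymphocytes that home to the gut, was dim, with levels of 3.70, 3.92 and 4.23 in the low WSS pools and 3.68, 3.99 and 4.42 in the high WSS pools. Its difference was -0.09 (SE 0.06), with 5 of 14 pairs higher in low WSS.

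The pairs did not behave alike, and pairs 1, 2 and 3 stood apart in a list of endothelial cell genes (such as Cdh5, Tie1 and Vwf). The mean of that list differed by 0.74, 0.77 and 0.78 (low minus high WSS) in these pairs, against -0.65 to 0.24 in pairs 4 to 14. A list of leucocyte and macrophage genes split in the same way, with 0.69, 0.72 and 0.49 against -0.28 to 0.29. This split of the pairs was seen in the data and is not in the labels. In pairs 1 to 3 the mean difference of Vcam1 was 0.92 (0.84 to 1.02), against 0.24 (-0.57 to 0.80) in pairs 4 to 14. Icam1 had a mean difference of 0.45 (0.34 to 0.55) in pairs 1 to 3 and 0.07 (-0.21 to 0.52) in the other pairs. Icam2 changed sign between them, with 0.61 (0.43 to 0.84) in pairs 1 to 3 and -0.30 (-0.80 to 0.12) in pairs 4 to 14, where 2 of 11 pairs were higher in low WSS. Selp had 1.39 (1.24 to 1.66) in pairs 1 to 3 and 0.83 (0.37 to 1.29) in the others, and Selplg had 0.61 and 0.12. Spn alone among the 6 genes was nearly the same, with 0.44 in pairs 1 to 3 and 0.43 in pairs 4 to 14, and it was higher in low WSS in every pair of both.

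**Figure D2:**
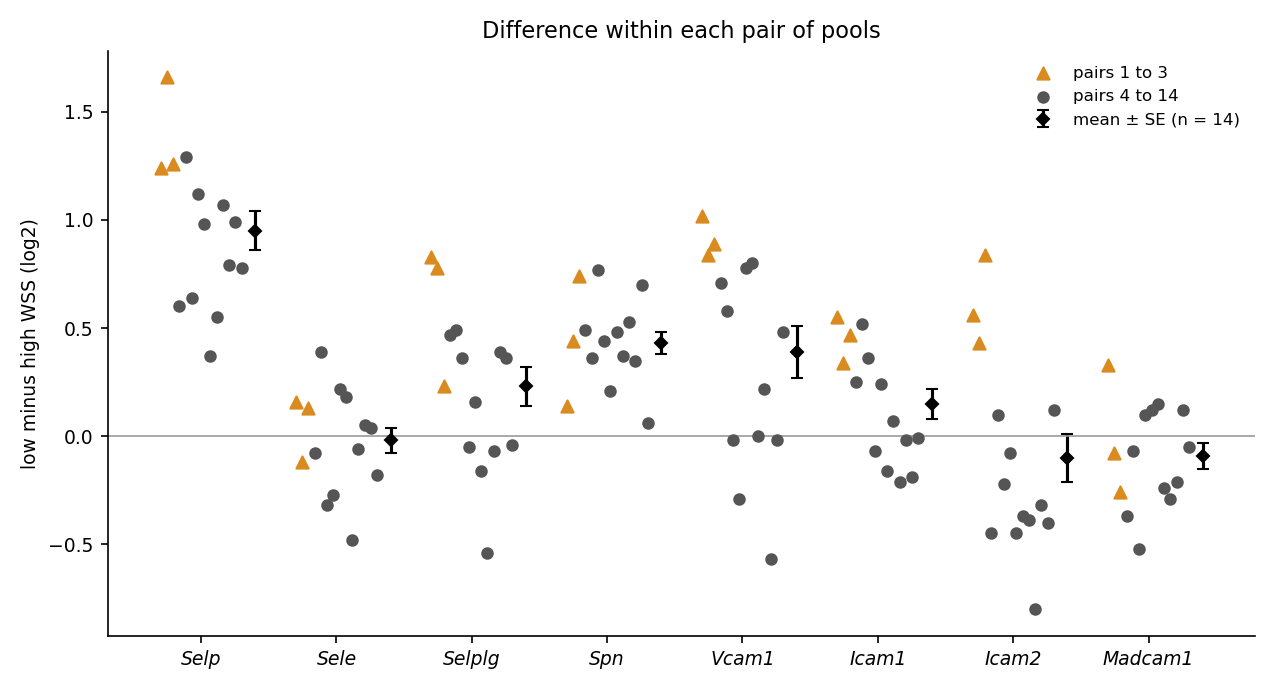
Difference in level (low minus high WSS, log2) within each of the 14 pairs for the 8 adhesion genes, with pairs 1 to 3 as orange triangles, pairs 4 to 14 as grey points and the mean ± SE as black diamonds. Every Selp and Spn point lies above 0, the triangles lie above the mean in Selp, Vcam1, Icam1 and Icam2, and Icam2 is positive in the triangles but mostly negative in the grey points.

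Genes of other cell types were measured in the same pools, because each adhesion gene is also expressed outside the aortic endothelium. None of the 14 endothelial genes tested passed an adjusted p of 0.05 in either direction (limma, with none at an unadjusted p under 0.05 and none in the paired t-test after adjustment), and the mean of that list ran from 6.04 to 6.94 in the low WSS pools and from 6.02 to 7.01 in the high WSS pools. Among 14 genes of leucocytes and macrophages, 7 had a higher level in low WSS, beside 19.7% of all genes, and 1 a lower level, Aif1 (-0.13, adjusted p = 0.0281), which is named after its values were seen. Lcp1 (0.85, adjusted p = 1.76e-07) and Cd53 (0.66, adjusted p = 3.68e-06), both general leucocyte genes, were higher in 14 of 14 pairs, and Coro1a was higher by 0.42 (adjusted p = 8.92e-05). The other 6 did not pass, namely Csf1r (0.19), Cd14 (0.07), Cd68 (0.03), Fcer1g (0.00), Mrc1 (-0.22) and Cd163 (-0.27). These 6 were named after their values were seen. The mean of the leucocyte list ran from 6.31 to 7.00 in low WSS and from 6.15 to 6.87 in high WSS, and was higher in 10 of 14 pairs. With that mean as a covariate the difference of Spn was 0.43 (SE 0.07) and that of Selp 0.79 (SE 0.09), while Selplg had 0.00 (SE 0.08), Vcam1 0.26 (SE 0.14), Icam1 0.03 (SE 0.07) and Icam2 -0.36 (SE 0.10). The part of leucocyte content in the differences of Selplg, Vcam1 and Icam1 was not tested beyond these values.

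Platelets also store P-selectin. Of 6 megakaryocyte and platelet genes tested, 4 were lower in low WSS (Ppbp, Gp9, Gp5 and Treml1), beside 22.0% of all genes, and none was higher, also at an unadjusted p under 0.05. Pf4 (-0.07, SE 0.06, adjusted p = 0.379) and Itga2b (-0.08, SE 0.08, adjusted p = 0.482) did not pass and were named after their values were seen. Ppbp, a platelet chemokine, averaged 4.56 ± 0.20 in low WSS and 4.89 ± 0.19 in high WSS (SD, n = 14 each, adjusted p = 0.000328). The mean of the list was 4.25 to 4.59 in low WSS and 4.43 to 4.77 in high WSS, lower in low WSS in 14 of 14 pairs, at levels just above the minimum. The amount of platelets was not measured, and their part in the Selp difference was not tested. Venous endothelium, which carries more P-selectin than arterial endothelium in most tissues, was represented by 3 genes, of which Nr2f2, a factor of venous identity, was lower in low WSS (-0.26, adjusted p = 0.00597) and none was higher. The arterial connexin gene Gja4 was also lower (-0.34, adjusted p = 0.000292), while the other 6 arterial and all 5 lymphatic genes tested did not pass, although 2 of the lymphatic genes and 1 other arterial gene, Hey2 (-0.09, SE 0.04, adjusted p = 0.091, named after its values were seen), were lower at an unadjusted p under 0.05.

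Fat around the vessel was unevenly present. The mean of 9 fat cell genes ran from 6.19 to 9.86 in the low WSS pools and from 6.03 to 9.69 in those of high WSS. Of these genes Lpl (1.22, SE 0.47, adjusted p = 0.0447) and Fabp4 (1.19, SE 0.47, adjusted p = 0.0495) were higher in low WSS, whereas Plin4 was lower (-0.20, SE 0.05, adjusted p = 0.00206). In 9 of 14 pairs the list mean was higher in low WSS, with pair differences of 1.86, 3.39, 2.65 and 2.97 in pairs 1, 2, 3 and 7, against -1.56 and -1.86 in pairs 4 and 6 and -0.27 to 1.35 in the others. With the mean of that list as a covariate the difference was 0.86 (SE 0.08) for Selp, 0.44 (SE 0.06) for Spn, 0.35 (SE 0.13) for Vcam1 and -0.22 (SE 0.10) for Icam2. Of 5 smooth muscle genes tested 1 passed, Myocd, the coactivator of the contractile programme, which was lower in low WSS in 13 of 14 pairs (-0.37, SE 0.05, adjusted p = 2.09e-05). Tagln and Cnn1 differed by 0.06 (SE 0.04, adjusted p = 0.252) and 0.00 (SE 0.04, adjusted p = 0.943). With both as covariates Selp had 0.95 (SE 0.11), Vcam1 0.35 (SE 0.17) and Spn 0.30 (SE 0.07). Of 6 fibroblast and adventitia genes 2 were higher, Col3a1 (0.23, SE 0.04, adjusted p = 0.000157) and Pdgfra (0.29, SE 0.10, adjusted p = 0.0319), and 2 were lower, Dpt (-0.65, SE 0.07, adjusted p = 1.99e-06, in 14 of 14 pairs) and Dcn (-0.10, SE 0.04, adjusted p = 0.0424). These counts of fat, smooth muscle and fibroblast genes stand beside 19.7% of all genes higher and 22.0% lower. The part of the content of these cells in the differences of the adhesion genes was not tested beyond the covariate values. Of 10 T, B and mast cell genes with a probe set, 7 lay under the minimum level and none of the 3 tested passed (1 higher at an unadjusted p under 0.05), nor did the 3 mesothelial genes tested.

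**Figure D3:**
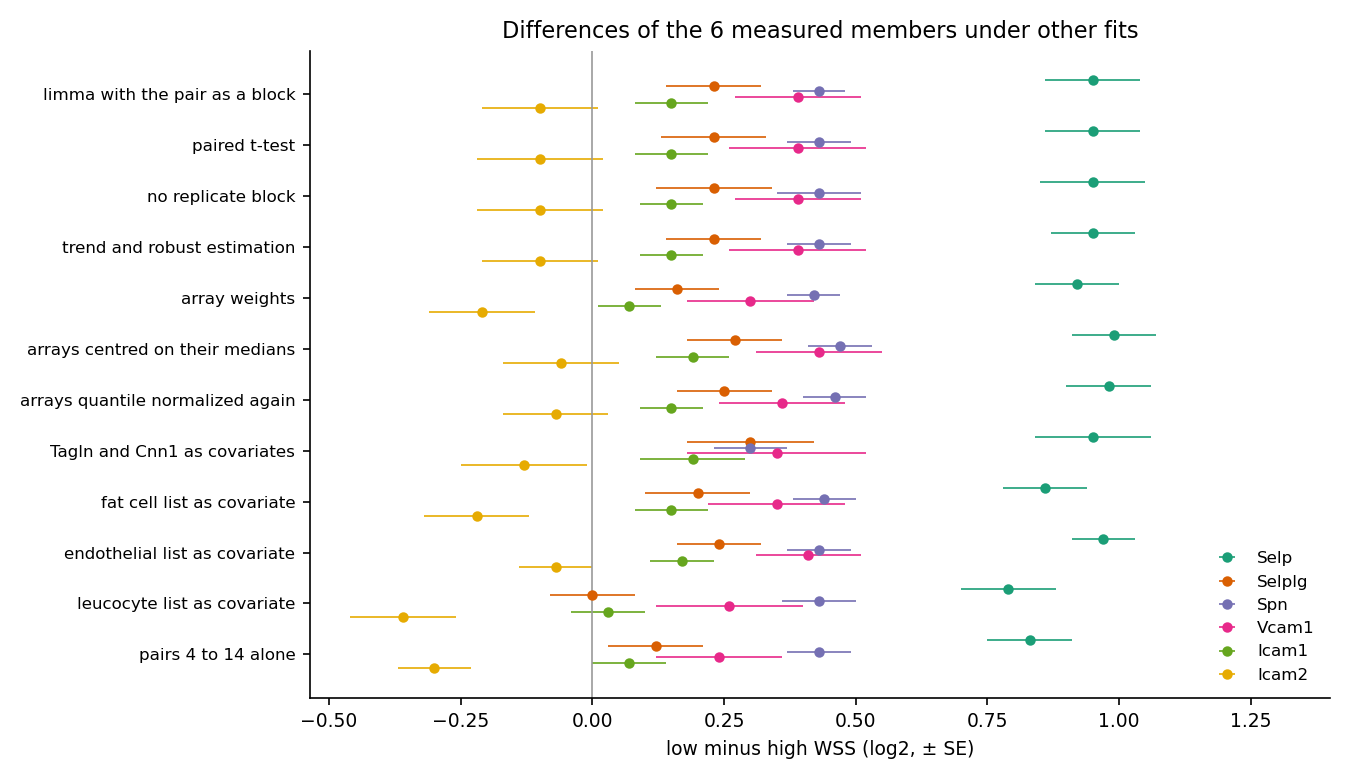
Difference (low minus high WSS, log2, ± SE) of the 6 tested adhesion genes, in 1 colour per gene, under the limma model with the pair as a block (top) and under other tests, normalizations, covariates and pairs. Selp lies between 0.79 and 0.99 and Spn between 0.30 and 0.47 throughout, whereas Selplg reaches 0.00 and Icam2 -0.36 with the leucocyte list as a covariate.

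How the pair differences of the 6 genes went with those of the endothelial, leucocyte and fat cell lists was examined in 18 relations. Because pairs 1 to 3 lie apart, r is given over pairs 4 to 14 alone (n = 11 pairs), and pairs 1 to 3 are too few for a value of their own. None of the 18 relations passed after Benjamini-Hochberg adjustment, by Pearson's r or by Spearman's rho, and 1 passed by each measure before it. The highest r was that of Selplg with the leucocyte list (r = 0.65, two-sided permutation p = 0.0307, adjusted p = 0.552, rho = 0.59, permutation p = 0.0601, adjusted p = 0.541), and it was 0.57 without the 2 pairs farthest from the median of the list. The lowest was that of Icam1 with the fat cell list (r = -0.58, permutation p = 0.0634, adjusted p = 0.571, rho = -0.72, permutation p = 0.0166, adjusted p = 0.298), and r was -0.52 without the 2 farthest pairs. Selp had r = 0.37 with the endothelial list and r = 0.14 with the leucocyte list in these pairs.

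**Figure D4:**
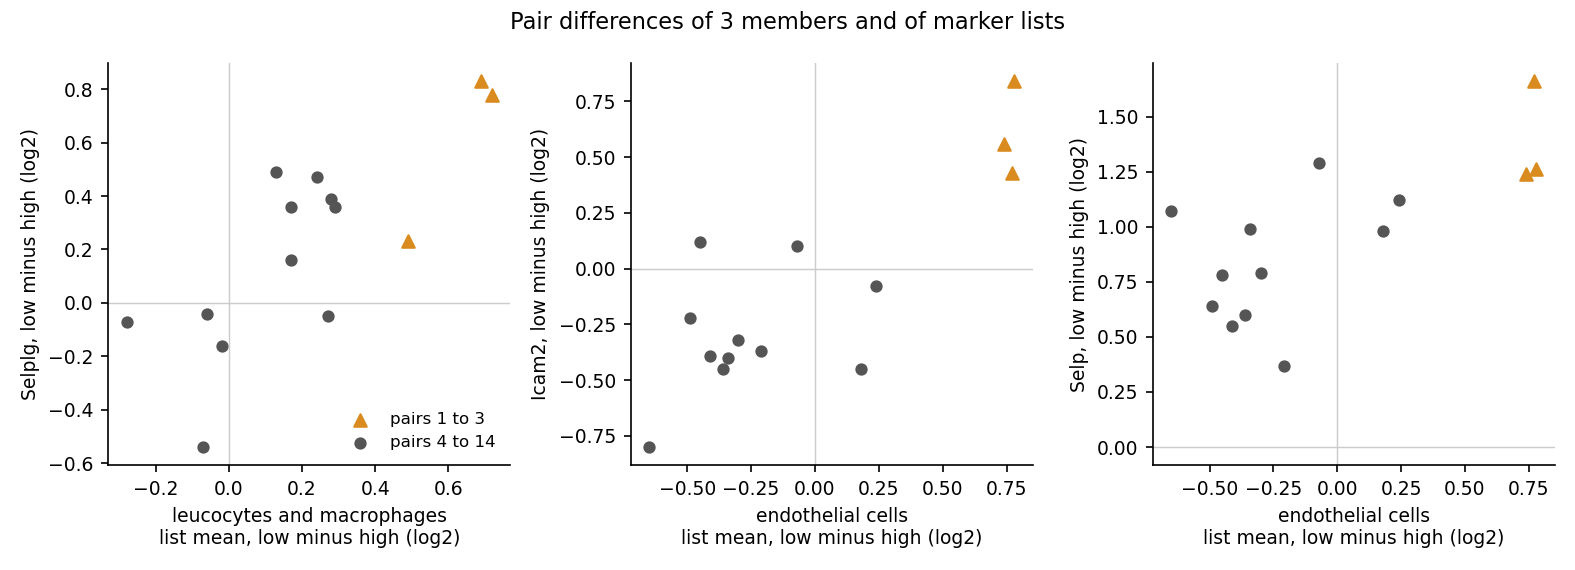
Pair differences (low minus high WSS, log2) of Selplg against the leucocyte and macrophage list and of Icam2 and Selp against the endothelial list, with pairs 1 to 3 as orange triangles and pairs 4 to 14 as grey points. The triangles lie apart from the other pairs on the endothelial axis, at 0.74 to 0.78, and on the leucocyte axis, at 0.49 to 0.72. Within the grey points r is 0.65 for Selplg, 0.34 for Icam2 and 0.37 for Selp, none past the threshold after adjustment.

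The genes whose levels went most closely with each adhesion gene across the 28 pools, after the mean of each region was subtracted, differed from gene to gene. Selplg had the closest company, with the macrophage pore protein gene Mpeg1 (r = 0.86), the leucocyte GTPase gene Rac2 (r = 0.85) and Cyth4 (r = 0.84). Spn went with the leucocyte integrin activator Fermt3, with Itgb2 and with Appl2 (r = 0.74 each). For Selp the closest genes were Dapk1 (r = 0.77), Adamts4 (r = 0.76) and Uqcr10 (r = 0.74), and for Icam2 they were the prostaglandin transporter gene Slco2a1 (r = 0.76), the endothelial and haematopoietic factor Gata2 (r = 0.74) and Slc35f1 (r = 0.74). Vcam1 went with Gas7 and Fbln7 (r = 0.76 each) and Il17rd (r = 0.75), and Icam1 with Cln6 (r = 0.77), Serping1 and Cerk (r = 0.76 each). These r are descriptions, chosen as the highest among all genes tested, and the pools of a pair share their animals. The 28 pools include those of the pairs that lie apart, and subtraction of the region means does not remove that split. The part of those pairs in these r was not tested.

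The other genes of leucocyte adhesion were taken as 6 lists of 89 genes, of which 62 were tested. Of the tested genes 20 were higher in low WSS and 9 lower (limma, adjusted p under 0.05), beside 19.7% and 22.0% of all genes (41.7% called in either direction). The same shares stand beside the count of each list below, and nothing is read from those counts. Among leucocyte integrins and further selectin ligands, 4 of 10 were higher and 1 was lower. Itgb2, the shared beta2 chain of the integrins that bind ICAM-1 and ICAM-2, averaged 5.75 ± 0.31 in low WSS and 5.28 ± 0.29 in high WSS (SD, n = 14 each), a difference of 0.48 (SE 0.06, adjusted p = 4.25e-06) that was positive in 14 of 14 pairs. Its alpha chains did not go together. Itgax was higher by 0.22 (SE 0.07, adjusted p = 0.0194) and Itgal, the alpha chain of LFA-1, was lower (-0.27, SE 0.06, adjusted p = 0.00263), at 4.68 ± 0.26 in low WSS and 4.95 ± 0.24 in high WSS (SD, n = 14 each). Glg1, which encodes the E-selectin ligand ESL-1 and a Golgi protein of many cells, was higher by 0.16 (SE 0.05, adjusted p = 0.013), as was Cd44 by 0.13 (SE 0.05, adjusted p = 0.0404). Itga4, the alpha chain of the VCAM-1 ligand, lay at 4.05 ± 0.21 in low WSS and 3.78 ± 0.23 in high WSS (SD, n = 14 each), under the minimum, and was not tested. Cd44 and Itga4 were named after their values were seen.

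The enzymes that build the sialylated, fucosylated and sulphated glycans of selectin ligands moved both ways, with 2 of 10 higher and 3 lower. The sialyltransferase genes St3gal6 (0.23, SE 0.05, adjusted p = 0.00106) and St3gal4 (0.17, SE 0.05, adjusted p = 0.0145) were higher in low WSS. Tpst2, one of the enzymes that sulphate the tyrosines by which PSGL-1 binds P-selectin, was lower (-0.26, SE 0.06, adjusted p = 0.00284), as were the sulphotransferase gene Chst2 (-0.17, SE 0.05, adjusted p = 0.0167) and St3gal3 (-0.15, SE 0.05, adjusted p = 0.0182), the last named after its values were seen. Fut7, the fucosyltransferase of leucocyte selectin ligands, lay at 4.01 ± 0.20 in low WSS and 3.97 ± 0.14 in high WSS (SD, n = 14 each) and was not tested, and it too was named after its values were seen.

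Among other receptors and junction proteins of leucocyte passage, 2 of 11 were higher and 3 were lower. Alcam, an immunoglobulin-type receptor that binds CD6 on T cells, averaged 8.20 ± 0.19 in low WSS and 8.59 ± 0.26 in high WSS (SD, n = 14 each) and was lower in low WSS in 14 of 14 pairs (-0.39, SE 0.06, adjusted p = 2.77e-05). Cd47, a widely expressed partner of integrins and signal regulatory proteins, was higher in 14 of 14 pairs (0.28, SE 0.05, adjusted p = 0.000166), and the membrane-bound chemokine gene Cx3cl1 was higher by 0.21 (SE 0.06, adjusted p = 0.0108). Mcam (-0.14, SE 0.05, adjusted p = 0.0184) and Nectin2 (-0.13, SE 0.04, adjusted p = 0.0208, named after its values were seen) were lower. Thus receptors of the same superfamily as Vcam1 lay on both sides of 0.

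The cytokines that induce Vcam1, Icam1 and Sele were at the dim end of the arrays. Of 16 genes of cytokines, their receptors and their signalling, 6 lay under the minimum, and Tnf, at 3.96 ± 0.17 in low WSS and 4.06 ± 0.23 in high WSS (SD, n = 14 each), had a difference of -0.10 (SE 0.05, adjusted p = 0.131). By real-time PCR the study found Tnf, like Vcam1, to be higher in the low WSS region. The array probe set of Tnf had a mean level of 4.01, close to the minimum. The reason why its array difference departs from the PCR result was not tested. Of the 10 cytokine, receptor and signalling genes tested 1 was higher and 2 were lower. The NF-kB subunit genes Rela (-0.23, SE 0.04, adjusted p = 0.000446) and Nfkb1 (-0.10, SE 0.03, adjusted p = 0.0212) were lower, the first in 12 of 14 pairs and the second also in 12. The interleukin 1 receptor gene Il1r1 was higher by 0.16 (SE 0.06, adjusted p = 0.0482), a call that ended without pair 1, 2, 3, 5, 6, 7, 10, 11, 13 or 14 and in the paired t-test. Irf1, an interferon-induced factor, had -0.26 (SE 0.11, adjusted p = 0.0535) over all pairs and did not pass. In pairs 4 to 14 it had -0.45 (adjusted p = 0.000171), a description, since that split of the pairs was seen in these data.

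Of the Weibel-Palade body genes, 4 of 10 were higher in low WSS and none was lower, beside 19.7% of all genes higher and 22.0% lower. Vwf, the main content of these organelles, had -0.19 (SE 0.10, adjusted p = 0.142). The higher genes were Vamp3 (0.26, SE 0.04, adjusted p = 8.68e-05, in 14 of 14 pairs), Rab3d (0.24, SE 0.04, adjusted p = 0.000124), Cd63 (0.16, SE 0.04, adjusted p = 0.00274) and Vamp8 (0.16, SE 0.06, adjusted p = 0.0398), which encode membrane and vesicle traffic proteins that many other cells use as well. The list of linkers and sheddases, proteins that tether adhesion molecules to the cytoskeleton or cut them from the surface, had 7 of 11 genes higher and none lower, beside the same shares of all genes. Ezr and Msn, the linkers ezrin and moesin that bind the tails of CD43, PSGL-1 and the ICAM family, were higher by 0.37 (SE 0.05, adjusted p = 9.06e-06) and 0.34 (SE 0.05, adjusted p = 1.97e-05). Ezr averaged 6.41 ± 0.13 in low WSS and 6.04 ± 0.13 in high WSS, and Msn averaged 10.54 ± 0.14 in low WSS and 10.21 ± 0.12 in high WSS (SD, n = 14 each), both higher in 14 of 14 pairs. The tetraspanin gene Cd151 (0.29, SE 0.04, adjusted p = 1.47e-05) and Adam17, the protease that sheds VCAM-1 and other surface proteins (0.26, SE 0.04, adjusted p = 0.000155), were higher too, and Actn1 had -0.08 (SE 0.03, adjusted p = 0.0571), the only gene of the list with a lower level at an unadjusted p under 0.05, named after its values were seen. With Tagln and Cnn1 as covariates 14 of the 62 genes passed, against 29 without them, and the median SE over all genes was then 0.07, against 0.052. Of the genes of smallest p in each list, Itgal, Glg1, Tpst2, St3gal4, Chst2, Itgax, Nfkb1, Il1r1 and Vamp8 lost their call in that setting. Vamp8 also lost it without pair 3, 4, 5, 7, 8, 10, 12 or 14, and Itgax, Mcam, Il1r1 and Vamp8 lost it in pairs 4 to 14 alone. Itgax, Chst2, Cx3cl1, Mcam and Il1r1 lost it without the pair as a block. With the leucocyte covariate Itgax, Cx3cl1, Mcam, Nfkb1, Il1r1 and Vamp8 did, and with the fat cell covariate Chst2, Nfkb1, Il1r1 and Vamp8. Centred arrays removed it for Chst2 and Nfkb1, and array weights for Itgax and Il1r1. Il1r1 and Vamp8 also lost it in the paired t-test and without the filter.

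**Figure D5:**
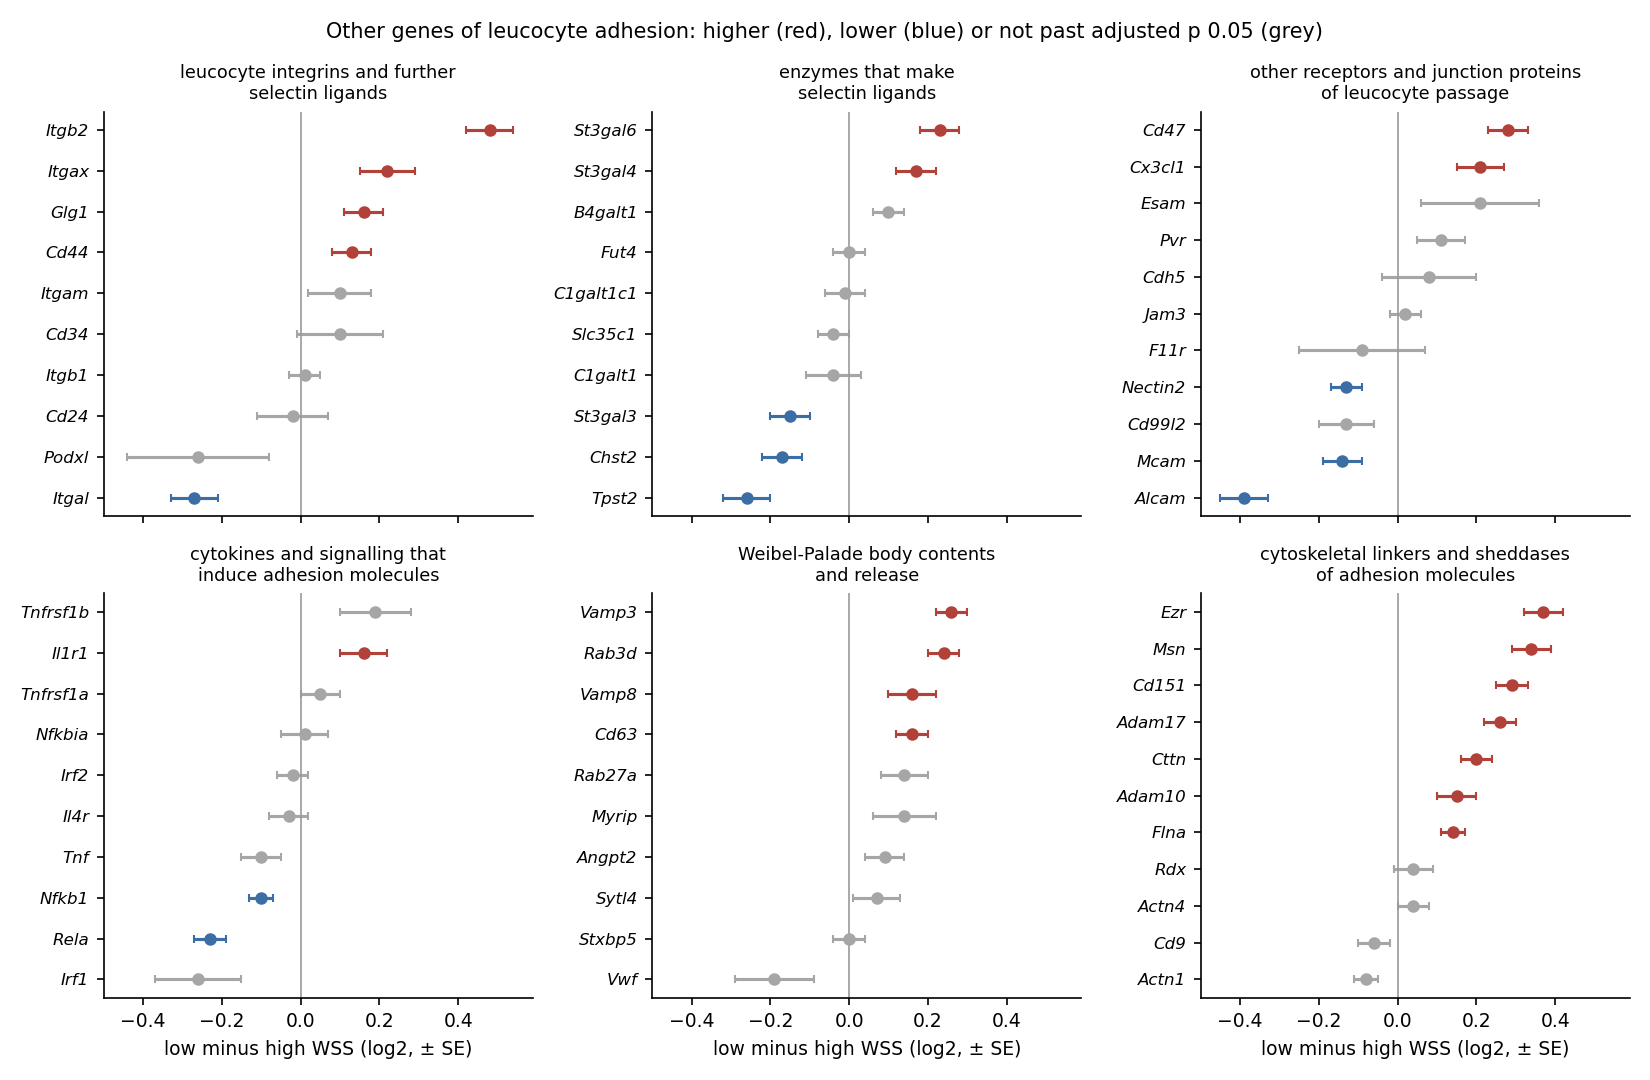
Difference (low minus high WSS, log2, ± SE over 14 pairs) of the 62 tested genes in the 6 lists of leucocyte adhesion, with genes past an adjusted p of 0.05 in red (higher in low WSS) or blue (lower) and the others in grey. Linkers and sheddases have 7 red and no blue points and Weibel-Palade genes 4 red and no blue, while the other lists have points of both colours. Of all genes 19.7% were higher and 22.0% lower.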

How the data were processed

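Total RNA of 28 pools was hybridised to Affymetrix Rat Gene 1.1 ST arrays. The deposited values are log2 levels per probe set, which the authors made with RMA (background correction, normalization of all arrays to a common distribution, summary per probe set), with an annotation on the rn4 build. The version of RMA is not given in the sources used here. Because the arrays share a distribution, a difference is relative to the other genes.

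Of 29214 probe sets, 18644 have 1 symbol, 962 several and 9608 none in the annotation used here. Probe sets with a symbol and a mean level of at least 4 were kept (13383), and a gene with several is represented by the one of highest mean level. Pools were paired by the replicate number of the labels, since the study's methods describe pairs of pools from the same animals. As a check of the pairing, the deviations from the region means were correlated within pairs (r from -0.012 to 0.48, of which 11 of 14 exceeded 0.1) and between unpaired pools (mean r -0.017). The model was limma 3.58.1 in R 4.3.3 with the pair as a block and Benjamini-Hochberg adjustment over all 13383 probe sets, of which 5644 passed 0.05, 2739 higher and 2905 lower in low WSS. The Bonferroni threshold was an unadjusted p of 3.74e-06. In simulated data on 13383 probe sets for this comparison, 37, 49, 50 and 50 of 50 changes of 0.3, 0.6, 1 and 2 (log2) were recovered, with 6 false calls. Far fewer probe sets were changed there than the 5644 called in the data. The adjustment is then stricter, so these counts do not carry over to the data. Permutation tests of correlations used 100000 resamples.

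The adhesion genes and all lists were chosen with earlier results of these data known, so no count of a list is independent evidence. Genes named are the 9 adhesion genes, up to 4 genes of smallest adjusted p in each list, the 3 genes of highest r with each adhesion gene, and Tnf, Tagln and Cnn1, apart from those said to be named after their values were seen. Alternatives were the methods' paired t-test, no pair, trend and robust estimation, array weights, no filter or a mean of at least 6, centred or again quantile normalized arrays, covariates (Tagln and Cnn1, fat cell, endothelial and leucocyte lists), pairs 4 to 14 alone and each pair left out. Correlations over pairs 4 to 14 alone were chosen after seeing the data. The split of the pairs itself was seen in these data, so p-values of the fit in pairs 4 to 14 are descriptions too. Promoter sequences are those of RefSeq on GRCr8.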

Additional observations from a re-analysis of the deposited data

How the results depend on the processing

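For the adhesion genes all 160 values (6 tested genes, and Sele and Madcam1 without the filter) under alternatives lay within 1 SD of those reported. That margin is wide, since the SD of the pair differences exceeded the difference itself for Selplg (0.38), Vcam1 (0.50), Icam1 (0.27) and Icam2 (0.46). For these genes a value of 0 would also lie within that SD. The shifts of Selplg and Icam2 with the leucocyte covariate, given above, lie within it too. With 1 pair left out in turn, the difference was 0.9 to 1 for Selp, 0.18 to 0.29 for Selplg, 0.41 to 0.46 for Spn, 0.34 to 0.46 for Vcam1, 0.12 to 0.18 for Icam1 and -0.17 to -0.05 for Icam2, their median was 0.26 to 0.35, the number of probe sets called was 5212 to 5845 and that of the 62 pathway genes 26 to 29. Without the pair as a block 4856 probe sets and 24 pathway genes passed, Spn had 0.43 (SE 0.08) and Selp 0.95 (SE 0.10). How many adhesion genes passed is a description, since the same contrast chose them. Besides Selp, Spn and Vcam1, Icam1 passed without the pair as a block, Selplg with trend and robust estimation or quantile normalization, and both with centred arrays or the endothelial covariate (5 genes, against 3). Vcam1 did not pass with the Tagln and Cnn1 or leucocyte covariate or in pairs 4 to 14, and in the last 2 settings Icam2 passed as lower in low WSS. Pairs 1 to 3 were set apart because of their values in these data, among them those of endothelial genes. The call of Icam2 in pairs 4 to 14 is therefore a description and not a test. With 1 pair left out 3 to 5 genes passed. With Tagln and Cnn1 as covariates 3492 probe sets and 14 pathway genes passed, against 5644 and 29, and in that setting the cause was not tested beyond the wider SE. After centring of the arrays on their medians, 62.4% of the probe sets called were higher in low WSS, against 48.5%. Of the 18 correlations of an adhesion gene with a cell type list over all 14 pairs, 4 passed by r, against 11 over the 28 pools after subtraction of the region mean, 0 without the 2 farthest pairs, 2 with centred arrays and 0 in pairs 4 to 14. By Spearman's rho 0 of the 18 passed over all 14 pairs. The sign of r turned for Spn with the endothelial (0.31) and fat cell list (0.30) over the 28 pools, for Vcam1 with the leucocyte list (-0.01) without the 2 farthest pairs, for Icam1 with the fat cell list (-0.22) with centred arrays, and in pairs 4 to 14 for Selplg with the fat cell list (-0.34), Vcam1 with the leucocyte (-0.29) and fat cell list (-0.33) and Icam1 with the fat cell list (-0.58). Cnn1, near 0 throughout, had 0.01 with array weights, 0.03 with centred arrays, 0.03 with the fat cell list and 0.05 with the leucocyte list as covariate, 0.04 in pairs 4 to 14 and -0.02 to 0.01 with 1 pair left out, and Tagln had -0.03 after quantile normalization and 0.00 in its own covariate fit. A minimum level of 6 gave no value for Selp, Selplg, Spn and Icam2. The number of arrays and dim levels limit the precision.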
